A study of Mus musculus with 22 samples.

Results

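The 60 genes described here encode collagens and the proteins that modify, process and cross-link them. They were chosen by symbol from the array's probe annotation. The choice took every collagen chain gene (Col followed by a number, a and a number), the lysyl oxidases, the alpha subunits of prolyl 4-hydroxylase and the lysyl hydroxylases. P4hb, Serpinh1, Bmp1, Pcolce, Bgn, Dcn, Lum and Postn were added by name. Adamts2 was named too, but neither it nor the lysyl oxidase Loxl2 had a probe set with 1 symbol, so both are absent. Of 18193 genes measured by a probe set with 1 symbol, 60 met these terms, 42 of them collagen chains and 18 others. Each gene was read from the brightest of its probe sets, by the mean of the 22 arrays, and 38 of the 60 had more than 1 probe set.

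Mouse embryonic stem (ES) cells of 1 line, Rex1GFPd2, which carries a destabilised GFP reporter of the pluripotency gene Rex1, were transfected with small interfering RNA (siRNA) and harvested 72 hours later for Affymetrix arrays. All cells received the MEK inhibitor PD0325901. The 7 arrays called 2i control here came from cells given control siRNA and kept in PD0325901 with the GSK3 inhibitor CHIR99021, which stabilises beta-catenin. The 7 PD-only control arrays came from cells given the same control siRNAs and switched 24 hours after transfection to medium with PD0325901 and no CHIR99021. The 8 YAP/TAZ siRNA arrays came from cells switched to PD-only medium in the same way and given siRNA against the transcriptional co-activators YAP and TAZ. Each arm held 2 siRNAs, with 3 or 4 arrays each. The change of medium is given for the PD-only arms alone, so it cannot be told apart from the loss of CHIR99021. No arm combined YAP/TAZ siRNA with CHIR99021. Values are log2 expression after robust multi-array averaging (RMA), a normalization that sets all arrays on 1 scale and gives no call of presence. Differences of genes near the array's background are therefore understated.

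Collagens are secreted proteins whose chains wind around each other into rope-like helices. Fibrillar collagens assemble outside the cell into fibres that bear tension, whereas type IV collagen forms the sheet-like scaffold of basement membranes, the first matrix that an early embryo lays down. Before secretion, hydroxylases modify prolines and lysines of the chains and a chaperone in the endoplasmic reticulum holds the helix together. After secretion, proteases trim the ends, lysyl oxidases cross-link the fibres, and small proteoglycans bind to them. YAP and TAZ act in the nucleus mainly through the TEAD transcription factors, and beta-catenin acts through the TCF/LEF factors.

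The siRNAs lowered their targets: Yap1 differed by -1.27 ± 0.031 (SE) and Wwtr1, which encodes TAZ, by -1.04 ± 0.031 on the log2 scale between YAP/TAZ siRNA and PD-only control arrays. The 7 ES cell markers Pou5f1, Sox2, Nanog, Zfp42, Esrrb, Dppa5a and Utf1 all lay above the level of the median gene in at least 1 arm. Compared with PD-only control, 6 were higher and 1 lower in 2i control, and 4 were higher and 1 lower with YAP/TAZ siRNA. Their summed level ranged from 88.0 to 88.3 on 2i control arrays, from 85.7 to 86.0 on PD-only control arrays and from 87.0 to 87.3 with YAP/TAZ siRNA. Arrays of 1 arm correlated at 0.99769 or more over all genes, and no 2 arrays held identical values. The array's own control probe sets moved with the arms. The signal from the 3′ end of the Actb transcript minus that from its 5′ end was 0.966 ± 0.104 (SD, n = 7) on 2i control arrays, 0.717 ± 0.0355 (n = 7) on PD-only control arrays and 0.975 ± 0.0616 (n = 8) with YAP/TAZ siRNA. It was higher in 2i control than in PD-only control (exact permutation p = 0.000583, Benjamini-Hochberg adjusted 0.00105 over 9 such tests) and higher with YAP/TAZ siRNA (p = 0.000155, adjusted 0.000466). The labelling spikes averaged 8.96 ± 0.15 on 2i control arrays, 8.52 ± 0.174 on PD-only control arrays and 8.43 ± 0.12 with YAP/TAZ siRNA. The part of either measure in the results below was not tested beyond 1 refit, in which the Actb measure was a covariate. That measure differed between PD-only control and both other arms, so the refit separates it from the arms only in part. A call lost in the refit can therefore reflect less precision at a like difference. For Col12a1 in 2i control the difference was -0.13 (limma adjusted p = 0.036) without the covariate and -0.14 (adjusted p = 0.314) with it. The labels call the arrays biological replicates without naming separate cultures or days, so p-values measure the spread between these arrays.

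The type I and type V collagen chains and the type IV chains Col4a1, Col4a2 and Col4a5 were lower with CHIR99021 than in the PD-only control, and lower with YAP/TAZ siRNA. Most of the genes of modifying and matrix-binding proteins were lower in both as well. Of the 42 collagen chains, 19 were lower and 6 higher in 2i control, and 20 were lower and 4 higher with YAP/TAZ siRNA. Of the 18 other members, 14 were lower and 1 higher in each. Compared with PD-only control, 33 of the 60 members were lower in 2i control and 7 were higher at an adjusted p under 0.05, 55% lower where 26.7% of all genes were lower and 31.3% were higher. Of these, 18 members were lower by 2-fold or more and 0 higher by that much, against 4.12% and 1.69% of all genes. With YAP/TAZ siRNA, 34 members were lower and 5 were higher than in PD-only control, 56.7% lower against 26.3% of all genes, where 35.5% were higher. By 2-fold or more, 19 members were lower and 0 higher, against 4.47% and 1.9% of all genes. The median difference over the 60 members was -0.25 in both comparisons, against 0.04 and 0.06 over all genes. Both comparisons use the same 7 PD-only control arrays, so their members' differences are not independent of each other. All adjusted p-values are from limma over all 18193 genes. The members and their roles were chosen with earlier results of these data known.

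**Figure D1:**
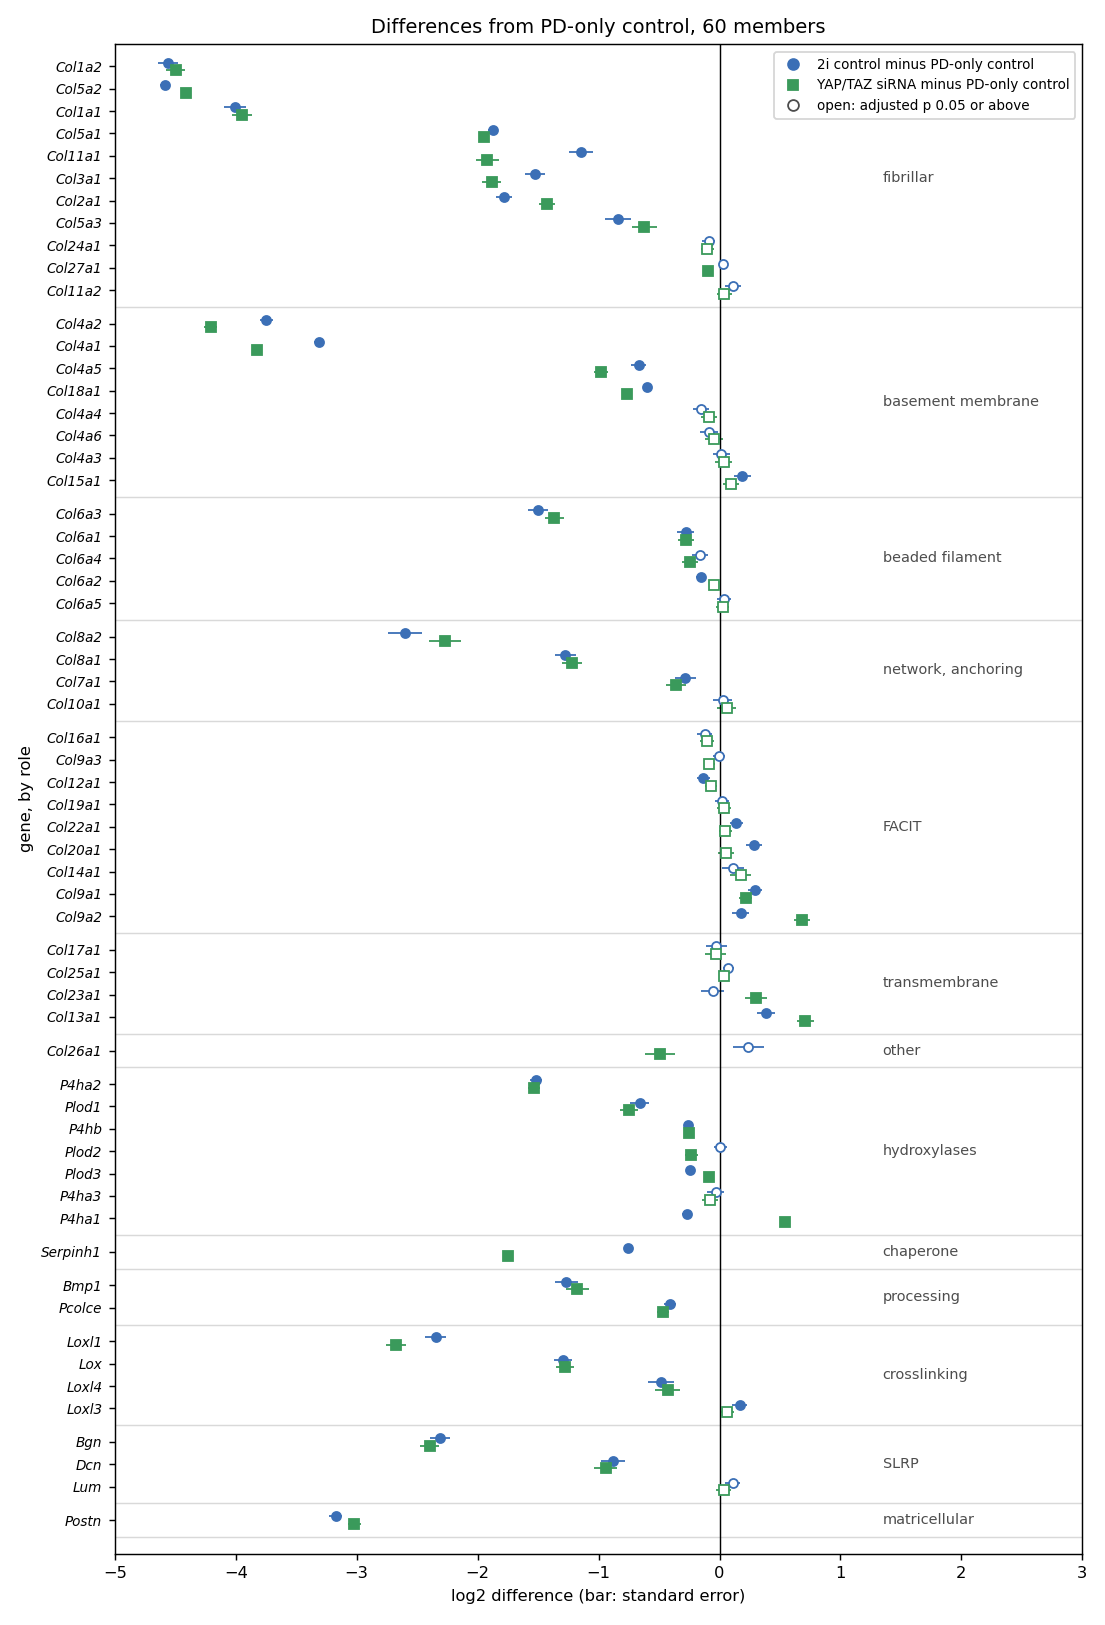
Log2 difference from PD-only control (horizontal axis, bars are standard errors) of all 60 members, listed by role (vertical axis), for 2i control (blue circles) and YAP/TAZ siRNA (green squares), with open symbols where the adjusted p was 0.05 or above. Col1a2, Col5a2, Col1a1, Col4a2, Col4a1 and Postn lie beyond -3 in both, and the fibril-associated and transmembrane collagens lie near 0 or above it. Each gene is shown on its brightest probe set only, and another probe set of the fibril-associated Col12a1 differed by -2.71 and -2.77.

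The groups of arrays were often fully apart. In 28 members every 2i control array was below every PD-only control array, and in 2 every one was above, where 19% and 18.7% of all genes did so. With YAP/TAZ siRNA, 26 members were below and 3 above on every array, against 19.3% and 21.1% of all genes. In 21 members the mean of some arm reached the mean level of the median gene (6.63 over all arrays) and 39 lay below it in every arm. A count over bulk RNA does not tell whether fewer cells held a transcript or each cell held less of it.

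Promoter sequence was available from RefSeq (GRCm38.p6) for 44 of the 60 members, as windows of 250 bases before and 50 after the annotated start. Shown are the 250 bases before the start of 4 genes that were lower in both comparisons, written 5′ to 3′ on the gene's strand, to set the gene with a difference of -4.56 beside genes with a motif. Capitals mark the core of the TEAD motif, GGAATG or its reverse complement CATTCC, and the core of the TCF/LEF motif, CTTTGA or its reverse complement TCAAAG. Col1a2 (chr6:4505368-4505617, plus strand) had neither motif in its window. Col3a1 (chr1:45311288-45311537, plus strand) had a CATTCC that begins 168 bases before the start. Col18a1, at the inner of its annotated starts (chr10:77113706-77113955, minus strand), had a GGAATG and a CATTCC, at 54 and 104 bases before it. Bgn (chrX:73483351-73483600, plus strand) had a CTTTGA 146 bases before its start.
Col1a2: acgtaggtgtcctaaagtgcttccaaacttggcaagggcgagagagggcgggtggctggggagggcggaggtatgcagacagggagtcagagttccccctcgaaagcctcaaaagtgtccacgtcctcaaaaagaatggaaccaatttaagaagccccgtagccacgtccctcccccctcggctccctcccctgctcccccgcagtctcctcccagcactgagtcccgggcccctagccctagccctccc
Col3a1: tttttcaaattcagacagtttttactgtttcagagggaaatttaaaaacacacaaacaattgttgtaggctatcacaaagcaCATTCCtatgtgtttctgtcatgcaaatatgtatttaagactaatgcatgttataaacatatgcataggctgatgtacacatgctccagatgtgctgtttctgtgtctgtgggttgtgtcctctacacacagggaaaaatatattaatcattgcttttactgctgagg
Col18a1: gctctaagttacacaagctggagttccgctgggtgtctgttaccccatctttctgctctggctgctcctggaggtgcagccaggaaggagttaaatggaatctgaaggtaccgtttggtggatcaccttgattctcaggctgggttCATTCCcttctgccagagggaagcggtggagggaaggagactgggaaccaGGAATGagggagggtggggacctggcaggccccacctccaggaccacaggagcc
Bgn: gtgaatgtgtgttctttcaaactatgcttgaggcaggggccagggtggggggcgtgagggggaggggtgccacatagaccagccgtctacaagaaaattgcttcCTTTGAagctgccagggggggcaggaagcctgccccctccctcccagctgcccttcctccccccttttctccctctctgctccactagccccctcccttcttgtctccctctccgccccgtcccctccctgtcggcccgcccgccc
A TEAD core lay in a window of 6 of the 44 members (13.6%), against 16.6% of 27025 genes with a window, and a TCF/LEF core in 11 (25%), against 18.2%. The 6 with a TEAD core were Col18a1, Col20a1, Col3a1, Col4a6, Col6a2 and P4hb. The 11 with a TCF/LEF core were Bgn, Col13a1, Col15a1, Col19a1, Col20a1, Col5a3, Col6a1, Col6a2, Col9a1, Col9a2 and Plod3. Genes with either core thus included members that were lower, higher and not called. Col4a1 and Col4a2 lie head to head on chromosome 8 with start sites 21 bases apart on opposite strands, and neither window held a core of either motif.

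Among the 11 fibrillar collagens, 8 were lower in 2i control than in PD-only control and 9 were lower with YAP/TAZ siRNA. In each comparison 7 were lower by 2-fold or more and 0 were higher. Among all genes 26.7% and 26.3% were lower, and 4.12% and 4.47% by 2-fold or more. Type I and type V chains led. Col1a2, the alpha 2 chain of type I collagen, the main fibre of bone and tendon, had lowest, median and highest values of 4.94, 5.14 and 5.37 on 2i control arrays, 9.64, 9.72 and 9.82 on PD-only control arrays and 4.73, 5.25 and 5.53 with YAP/TAZ siRNA. The PD-only control arrays stood more than 4 log2 units above all others, and the other arms overlapped. Col1a2 was 23.6-fold lower in 2i control (log2 difference -4.56 ± 0.082, limma adjusted p = 1.81e-20) and 22.6-fold lower with YAP/TAZ siRNA (-4.50 ± 0.079, adjusted p = 1.12e-20). It ranked 30 and 24 from the lowest difference among all 18193 genes.

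Its partner chain Col1a1 had lowest, median and highest values of 4.99, 5.04 and 5.22 in 2i control, 8.85, 9.14 and 9.22 in PD-only control and 4.69, 5.22 and 5.32 with YAP/TAZ siRNA. It was 16.1-fold lower in 2i control (-4.01 ± 0.087, adjusted p = 3.98e-19) and 15.4-fold lower with YAP/TAZ siRNA (-3.95 ± 0.084, adjusted p = 2.6e-19). Col5a2, a chain of type V collagen, which sets the width of type I fibrils, had values of 5.33, 5.56 and 5.77 in 2i control, 10.07, 10.14 and 10.20 in PD-only control and 5.58, 5.72 and 5.88 with YAP/TAZ siRNA. No array of either low arm reached the PD-only control range. Its differences were -4.59 ± 0.038 in 2i control (24.1-fold, adjusted p = 1.05e-25) and -4.41 ± 0.037 with YAP/TAZ siRNA (21.3-fold, adjusted p = 1.11e-25). Col5a1, the other main type V chain, moved less: its values were 6.82, 6.97 and 7.05 in 2i control, 8.73, 8.81 and 8.97 in PD-only control and 6.75, 6.88 and 6.98 with YAP/TAZ siRNA. The PD-only control was again apart from both, with differences of -1.88 ± 0.042 (3.67-fold, adjusted p = 5.54e-19) and -1.95 ± 0.04 (3.86-fold, adjusted p = 1.48e-19).

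Col2a1, the type II chain of cartilage, had values of 6.03, 6.25 and 6.41 in 2i control, 7.76, 8.06 and 8.12 in PD-only control and 6.43, 6.58 and 6.77 with YAP/TAZ siRNA. The 3 arms did not overlap, with 2i control lowest. Col2a1 was 3.44-fold lower in 2i control (-1.78 ± 0.066, adjusted p = 2.81e-15) and 2.69-fold lower with YAP/TAZ siRNA (-1.43 ± 0.064, adjusted p = 5.39e-14). Col3a1, whose product co-assembles with type I collagen in soft tissue, spanned 4.02 to 4.46 in 2i control, 5.52 to 6.17 in PD-only control and 3.81 to 4.10 with YAP/TAZ siRNA, differences of -1.52 ± 0.081 (adjusted p = 1.05e-12) and -1.88 ± 0.078 (adjusted p = 1.46e-14). Col11a1, the type XI chain that nucleates cartilage fibrils, spanned 4.90 to 5.17, 6.05 to 6.26 and 3.78 to 4.73 in the same order, and here YAP/TAZ siRNA was the lowest arm, with no overlap between any of them (-1.15 ± 0.10 and -1.92 ± 0.10). Col5a3 was lower by 0.84 ± 0.11 and 0.62 ± 0.10 (adjusted p = 7.19e-07 and 2.09e-05). Col27a1, of a fibrillar collagen of growing cartilage, moved little: it spanned 7.28 to 7.42 in 2i control, 7.25 to 7.41 in PD-only control and 7.17 to 7.28 with YAP/TAZ siRNA, and passed the test only in the last (-0.09 ± 0.027, adjusted p = 0.0049; with the Actb covariate -0.10, adjusted p = 0.125). Col24a1 (-0.09 and -0.10) and Col11a2 (0.11 and 0.04) passed in neither comparison.

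**Figure D2:**
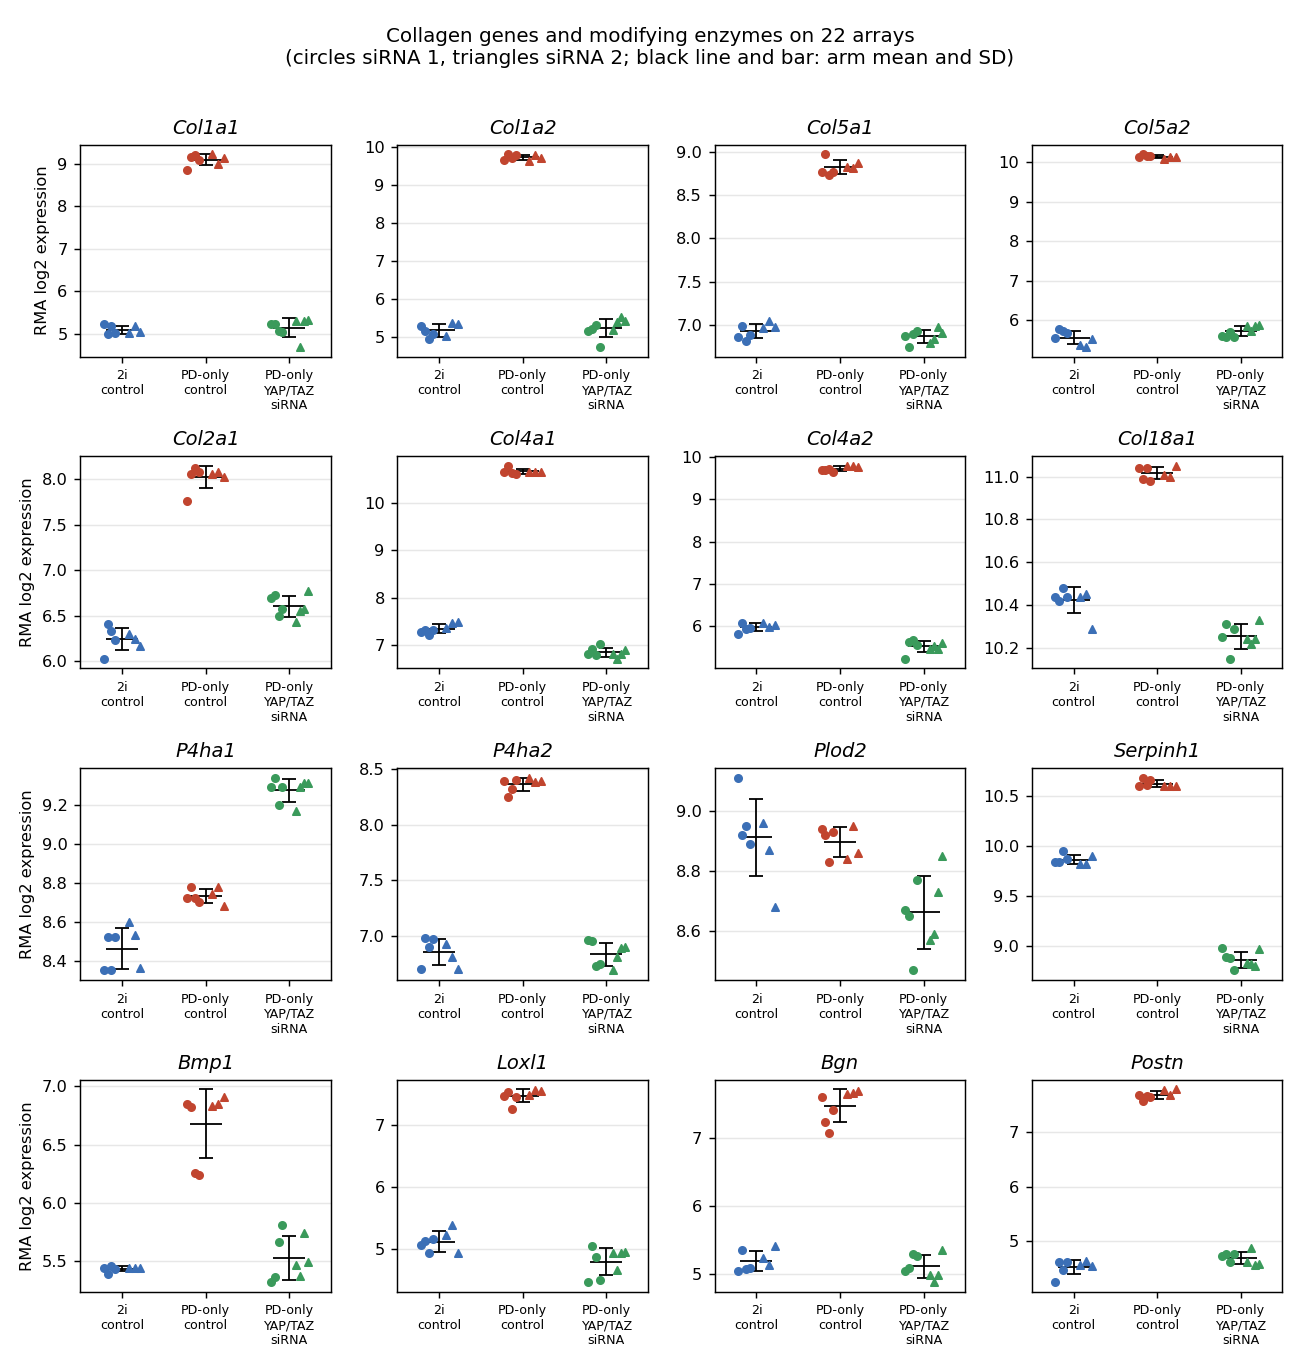
RMA log2 expression (vertical axes, each panel with its own range) of 16 members on each of the 22 arrays, by arm (horizontal axes), with circles for siRNA 1 and triangles for siRNA 2 of the arm and a black line and bar for the arm's mean and SD. In 14 of the panels the PD-only control is the highest arm; P4ha1 is highest with YAP/TAZ siRNA, and the control arms of Plod2 overlap.

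Of the 8 basement membrane collagens, 4 were lower in each comparison, Col4a1, Col4a2, Col4a5 and Col18a1, and 1 (Col15a1) was higher in 2i control. That was 50% lower, where 26.7% and 26.3% of all genes were lower. Col4a1 and Col4a2 encode the chains of the ubiquitous type IV network. Col4a1 had lowest, median and highest values of 7.21, 7.32 and 7.49 in 2i control, 10.62, 10.67 and 10.79 in PD-only control and 6.71, 6.81 and 7.02 with YAP/TAZ siRNA. Col4a2 had values of 5.82, 5.98 and 6.07 in 2i control, 9.64, 9.72 and 9.79 in PD-only control and 5.24, 5.55 and 5.69 with YAP/TAZ siRNA. For both genes the 3 arms were fully apart and YAP/TAZ siRNA was the lowest. Col4a1 was 9.95-fold lower in 2i control (-3.31 ± 0.04, adjusted p = 3.74e-23) and 14.2-fold lower with YAP/TAZ siRNA (-3.83 ± 0.039, adjusted p = 2.89e-24). Col4a2 was 13.4-fold lower (-3.75 ± 0.055, adjusted p = 5.92e-22) and 18.5-fold lower (-4.21 ± 0.053, adjusted p = 5.73e-23).

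Col18a1, whose product carries the anti-angiogenic fragment endostatin, had values of 10.29, 10.44 and 10.48 in 2i control, 10.98, 11.01 and 11.05 in PD-only control and 10.15, 10.24 and 10.33 with YAP/TAZ siRNA. The PD-only control arrays were all above the rest, yet the shift was small, -0.60 ± 0.031 in 2i control (adjusted p = 8.22e-13) and -0.76 ± 0.03 with YAP/TAZ siRNA (adjusted p = 6.55e-15). Col4a5, a type IV chain of the kidney filter, was lower by 0.67 ± 0.062 and 0.98 ± 0.06 (adjusted p = 8.9e-09 and 1.02e-11). The other kidney chains and the chain paired with Col4a5 in smooth muscle did not pass the test: Col4a3 differed by 0.01 and 0.03, Col4a4 by -0.15 and -0.08, and Col4a6 by -0.08 and -0.05. With the Actb measure as a covariate, Col4a4 passed in 2i control (-0.34, adjusted p = 0.0224) and Col4a6 passed in both comparisons (-0.37, adjusted p = 0.015, and -0.34, adjusted p = 0.0246). Col15a1, which encodes a proteoglycan collagen at the outer face of basement membranes, was higher in 2i control by 0.19 ± 0.069 (adjusted p = 0.024); with the Actb measure as a covariate the difference was -0.0913 (adjusted p = 0.532).

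Type VI collagen forms beaded filaments around cells. Of its 5 measured chains, 3 were lower in each comparison, against 26.7% and 26.3% of all genes. Col6a3 spanned 4.49 to 4.87 in 2i control, 5.99 to 6.44 in PD-only control and 4.53 to 5.07 with YAP/TAZ siRNA, 2.83-fold lower (-1.50 ± 0.081, adjusted p = 1.44e-12) and 2.58-fold lower (-1.37 ± 0.078, adjusted p = 3.12e-12). Col6a1 was lower by 0.28 ± 0.069 and 0.28 ± 0.067 (adjusted p = 0.00166 and 0.00129). Col6a2, the chain of this class with the highest mean, had lowest, median and highest values of 5.90, 6.05 and 6.10 in 2i control, 6.08, 6.15 and 6.36 in PD-only control and 6.0, 6.15 and 6.19 with YAP/TAZ siRNA. All arms overlapped, and the difference passed in 2i control (-0.15 ± 0.042, adjusted p = 0.00368) and not with YAP/TAZ siRNA (-0.04 ± 0.04, adjusted p = 0.346). The first was lost with the Actb covariate (-0.10, adjusted p = 0.313) and with control siRNA 1 alone (-0.0875, adjusted p = 0.196). Col6a4 was lower with YAP/TAZ siRNA (-0.25 ± 0.066, adjusted p = 0.003; with the Actb covariate -0.13, adjusted p = 0.461; in 2i control -0.16 ± 0.069, adjusted p = 0.0528), and Col6a5 did not pass in either comparison (0.04 and 0.03).

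Of the 4 network and anchoring collagens, 3 were lower in each comparison, against 26.7% and 26.3% of all genes. Col8a2, a type VIII chain known from the cornea's Descemet membrane, spanned 2.72 to 3.27 in 2i control, 4.84 to 6.02 in PD-only control and 3.22 to 3.64 with YAP/TAZ siRNA, a range below the median gene's level in every arm. It was 6.07-fold lower in 2i control (-2.60 ± 0.14, adjusted p = 1.15e-12) and 4.81-fold lower with YAP/TAZ siRNA (-2.27 ± 0.13, adjusted p = 5.07e-12). Its partner chain Col8a1 was 2.42-fold and 2.33-fold lower (-1.27 ± 0.088 and -1.22 ± 0.084). Col7a1, the anchoring fibril collagen of skin, had values of 5.27, 5.58 and 5.73 in 2i control, 5.61, 5.82 and 6.08 in PD-only control and 5.14, 5.50 and 5.57 with YAP/TAZ siRNA. The differences were -0.28 ± 0.085 (adjusted p = 0.00727) and -0.36 ± 0.082 (adjusted p = 0.000665), and the first did not pass with the Actb covariate (-0.34, adjusted p = 0.101). Col10a1, a collagen of hypertrophic cartilage, did not pass (0.03 and 0.06).

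The fibril-associated collagens sit on the surface of fibres and do not form fibres themselves. Of 9, each read from its brightest probe set, 4 were higher in 2i control (Col9a1, Col9a2, Col20a1 and Col22a1) and 1 was lower (Col12a1). With YAP/TAZ siRNA 2 were higher, Col9a1 and Col9a2, and 0 were lower. Thus 44.4% and 22.2% were higher, against 31.3% and 35.5% of all genes. In 2i control 11.1% were lower, against 26.7%, and with YAP/TAZ siRNA 0%, against 26.3%. The counts of this class changed with the Actb covariate and with the probe set. With the Actb measure as a covariate none of the 5 calls in 2i control passed (Col9a2 0.0684, adjusted p = 0.731; Col20a1 0.17, adjusted p = 0.293; Col22a1 0.0404, adjusted p = 0.798; Col12a1 -0.14, adjusted p = 0.314; Col9a1 below). Averaged over every probe set of the gene, Col12a1 was lower in 2i control (-0.69, adjusted p = 1.04e-13) and with YAP/TAZ siRNA (-0.70, adjusted p = 3.56e-14). By the same average, Col9a3 (-0.14, adjusted p = 0.0143) and Col22a1 (-0.13, adjusted p = 0.00153) were lower with YAP/TAZ siRNA. Col9a2, a type IX chain of cartilage, spanned 5.11 to 5.43 in 2i control, 4.90 to 5.37 in PD-only control and 5.63 to 6.05 with YAP/TAZ siRNA. The YAP/TAZ siRNA arrays were all above the rest, 0.68 ± 0.069 over PD-only control (adjusted p = 2.63e-08), while the 2i control difference was 0.17 ± 0.071 (adjusted p = 0.0432). Col9a1 was higher by 0.29 ± 0.055 in 2i control (adjusted p = 0.000104) and 0.22 ± 0.053 with YAP/TAZ siRNA (adjusted p = 0.00143), and passed in neither with the Actb covariate (adjusted p = 0.0762 and 0.249). Col16a1, the member of this class with the highest mean, had values of 6.51, 6.70 and 6.86 in 2i control, 6.69, 6.81 and 6.89 in PD-only control and 6.45, 6.73 and 6.82 with YAP/TAZ siRNA. The ranges overlapped and neither difference passed (-0.12 ± 0.061, adjusted p = 0.0956, and -0.11 ± 0.059, adjusted p = 0.126). Col9a3, Col14a1 and Col19a1 did not pass in either comparison, with differences between -0.08 and 0.17.

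The transmembrane collagens are anchored in the cell surface. Of 4, 1 was higher in 2i control and 2 were higher with YAP/TAZ siRNA, and 0 were lower. Among all genes 31.3% and 35.5% were higher, and 26.7% and 26.3% lower, so counts of 4 genes say little. Col13a1, found at cell adhesions and the neuromuscular junction, spanned 5.46 to 6.11 in 2i control, 5.18 to 5.45 in PD-only control and 5.80 to 6.18 with YAP/TAZ siRNA, so that PD-only control was below every array of both other arms. It was higher by 0.38 ± 0.075 in 2i control (adjusted p = 0.000157) and by 0.71 ± 0.072 with YAP/TAZ siRNA (adjusted p = 2.73e-08); with the Actb covariate the first was 0.14 (adjusted p = 0.414). Col23a1 was higher with YAP/TAZ siRNA (0.30 ± 0.091, adjusted p = 0.0073). Col25a1, the precursor of an amyloid-associated fragment in brain, had values of 6.37, 6.51 and 6.61 in 2i control, 6.34, 6.44 and 6.50 in PD-only control and 6.26, 6.48 and 6.56 with YAP/TAZ siRNA, overlapping throughout (0.07 ± 0.044 and 0.04 ± 0.042, adjusted p = 0.159 and 0.479). Col17a1, the hemidesmosomal collagen of skin, did not pass (-0.03 and -0.03). Col26a1, placed in no class, had values of 4.87, 5.27 and 5.44 in 2i control, 4.79, 4.92 and 5.11 in PD-only control and 3.96, 4.50 and 4.93 with YAP/TAZ siRNA. It was lower with YAP/TAZ siRNA (-0.49 ± 0.12, adjusted p = 0.00172; with the Actb covariate -0.48, adjusted p = 0.123), although the ranges overlapped, and the 2i control difference was 0.24 ± 0.13 (adjusted p = 0.125).

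Hydroxylases modify the chains before secretion. Compared with PD-only control, 5 of 7 subunits were lower in 2i control and 0 higher, and YAP/TAZ siRNA left 5 lower and 1 higher. The shares of all genes were 26.7% and 26.3% lower, and 31.3% and 35.5% higher. P4ha1 and P4ha2 are alternative catalytic subunits of prolyl 4-hydroxylase, which stabilises the collagen helix, and they moved differently. P4ha2 had lowest, median and highest values of 6.70, 6.90 and 6.98 in 2i control, 8.25, 8.39 and 8.42 in PD-only control and 6.69, 6.85 and 6.96 with YAP/TAZ siRNA. PD-only control was apart from both other arms, with differences of -1.52 ± 0.053 (2.86-fold, adjusted p = 1.12e-15) and -1.53 ± 0.051 (2.89-fold, adjusted p = 4.29e-16). P4ha1 had values of 8.35, 8.52 and 8.60 in 2i control, 8.68, 8.72 and 8.78 in PD-only control and 9.17, 9.29 and 9.34 with YAP/TAZ siRNA. The 3 arms did not overlap, and YAP/TAZ siRNA was the highest. P4ha1 was 1.46-fold higher with YAP/TAZ siRNA (0.54 ± 0.04, adjusted p = 1.63e-10) and lower in 2i control (-0.27 ± 0.041, adjusted p = 1.06e-05), the latter not with the Actb covariate (-0.0841, adjusted p = 0.274). Its other probe set did not pass in either comparison (0.06 with YAP/TAZ siRNA and -0.165 in 2i control).

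P4hb, the beta subunit of that enzyme and a disulfide isomerase, had values of 11.83, 11.88 and 11.99 in 2i control, 12.11, 12.16 and 12.20 in PD-only control and 11.85, 11.90 and 11.94 with YAP/TAZ siRNA. Every PD-only control array lay above all others, with differences of -0.26 ± 0.026 (adjusted p = 2.59e-08) and -0.26 ± 0.025 (adjusted p = 2.09e-08). P4ha3 did not pass (-0.03 and -0.08). The lysyl hydroxylases prepare lysines for cross-links and sugars. Plod1 was lower by 0.66 ± 0.078 and 0.75 ± 0.075 (adjusted p = 2.77e-07 and 2.28e-08). Plod3 had values of 7.88, 8.01 and 8.02 in 2i control, 8.06, 8.20 and 8.31 in PD-only control and 8.07, 8.12 and 8.19 with YAP/TAZ siRNA, lower by 0.24 ± 0.034 (adjusted p = 2.38e-06) and 0.09 ± 0.032 (adjusted p = 0.0246; with the Actb covariate -0.10, adjusted p = 0.206). The 2i control arrays lay below all others, while the last 2 arms overlapped. Plod2, which hydroxylates the telopeptides, had values of 8.68, 8.92 and 9.11 in 2i control, 8.83, 8.92 and 8.95 in PD-only control and 8.47, 8.66 and 8.85 with YAP/TAZ siRNA. Its control arms overlapped widely (0.01 ± 0.055, adjusted p = 0.914), and with the Actb covariate it was higher in 2i control (0.28, adjusted p = 0.00384). It was lower with YAP/TAZ siRNA (-0.23 ± 0.053, adjusted p = 0.000806), but 0.0429 (adjusted p = 0.679) with the Actb covariate. The other probe set of Plod2 passed as lower than PD-only control in both arms, at -0.142 (2i control) and -0.195 (YAP/TAZ siRNA).

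Serpinh1 encodes HSP47, the chaperone specific to collagen in the endoplasmic reticulum. Its lowest, median and highest values were 9.82, 9.84 and 9.95 in 2i control, 10.60, 10.60 and 10.68 in PD-only control and 8.76, 8.86 and 8.98 with YAP/TAZ siRNA. The 3 arms lay in separate, narrow ranges with YAP/TAZ siRNA at the bottom. Serpinh1 was 1.69-fold lower in 2i control (-0.76 ± 0.035, adjusted p = 8.49e-14) and 3.37-fold lower with YAP/TAZ siRNA (-1.75 ± 0.033, adjusted p = 3.78e-20).

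Both measured processing genes were lower in each comparison, against 26.7% and 26.3% of all genes. Bmp1, the protease that removes the carboxy propeptide of fibrillar procollagens, had values of 5.39, 5.44 and 5.46 in 2i control, 6.24, 6.83 and 6.91 in PD-only control and 5.32, 5.48 and 5.81 with YAP/TAZ siRNA. PD-only control was apart from both, although 2 of its arrays (control siRNA 1, replicates C and D) lay at 6.26 and 6.24 and the other 5 between 6.82 and 6.91. Bmp1 was 2.41-fold lower in 2i control (-1.27 ± 0.10, adjusted p = 3.71e-10) and 2.26-fold lower with YAP/TAZ siRNA (-1.18 ± 0.093, adjusted p = 6.08e-10). Pcolce, which enhances that cleavage, had values of 8.20, 8.33 and 8.45 in 2i control, 8.64, 8.73 and 8.85 in PD-only control and 8.07, 8.30 and 8.35 with YAP/TAZ siRNA. It was lower by 0.41 ± 0.051 (adjusted p = 5.2e-07) and 0.47 ± 0.049 (adjusted p = 4.33e-08), with PD-only control above every other array.

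Lysyl oxidases oxidise lysines so that collagen and elastin cross-link. Of the 4 measured, 3 were lower in each comparison, against 26.7% and 26.3% of all genes. Loxl1 had lowest, median and highest values of 4.93, 5.13 and 5.39 in 2i control, 7.26, 7.47 and 7.56 in PD-only control and 4.47, 4.90 and 5.05 with YAP/TAZ siRNA. It was 5.08-fold lower in 2i control (-2.35 ± 0.087, adjusted p = 2.94e-15) and 6.39-fold lower with YAP/TAZ siRNA (-2.68 ± 0.084, adjusted p = 1.46e-16), and no array of either arm came within 1 log2 unit of the PD-only control. Lox spanned 4.10 to 4.51, 5.30 to 5.77 and 4.03 to 4.47, 2.45-fold and 2.42-fold lower (-1.29 ± 0.076 and -1.28 ± 0.073). Loxl4 was lower by 0.49 ± 0.11 and 0.43 ± 0.11 (adjusted p = 0.000685 and 0.00145), with overlapping arrays. Loxl3 was higher in 2i control by 0.17 ± 0.062 (adjusted p = 0.0269), and did not pass with YAP/TAZ siRNA (0.06). The first call was lost with the Actb covariate (0.18, adjusted p = 0.233), with control siRNA 1 alone (0.0875, adjusted p = 0.395) and when any of 4 single arrays was left out (adjusted p = 0.0545 to 0.0982).

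Among the 3 small leucine-rich proteoglycans, which coat collagen fibres and limit their width, Bgn and Dcn were lower in each comparison. The share of all genes was 26.7% and 26.3%. Bgn, or biglycan, had values of 5.05, 5.13 and 5.41 in 2i control, 7.08, 7.61 and 7.70 in PD-only control and 4.88, 5.07 and 5.35 with YAP/TAZ siRNA. It was 4.96-fold lower in 2i control (-2.31 ± 0.082, adjusted p = 1.48e-15) and 5.27-fold lower with YAP/TAZ siRNA (-2.40 ± 0.079, adjusted p = 3.62e-16); its promoter, printed above, holds a CTTTGA. Dcn, or decorin, was lower by 0.88 ± 0.10 (adjusted p = 1.39e-07) and 0.94 ± 0.10 (adjusted p = 2.77e-08), and every array of both arms was below PD-only control. Lum did not pass (0.11 and 0.04). Postn encodes periostin, a matricellular protein that binds type I collagen and Bmp1. It had lowest, median and highest values of 4.24, 4.55 and 4.62 in 2i control, 7.58, 7.68 and 7.79 in PD-only control and 4.55, 4.67 and 4.86 with YAP/TAZ siRNA. Both low arms lay near each other and far from PD-only control, 9.03-fold lower in 2i control (-3.17 ± 0.056, adjusted p = 1.16e-20) and 8.12-fold lower with YAP/TAZ siRNA (-3.02 ± 0.054, adjusted p = 1.28e-20).

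YAP/TAZ siRNA in PD-only medium was then compared directly with 2i control. The differences themselves do not use the PD-only control arrays. Their standard errors and p-values do, because the fit shares its estimate of spread over all groups. Of the 60 members, 10 were higher and 12 lower with YAP/TAZ siRNA, where 25.5% of all genes were higher and 22.8% lower. No member differed by 2-fold or more, against 0.632% of genes higher and 0.879% lower by that much, and the median difference was -0.01 over the members and 0.01 over all genes. The arms did not overlap in 5 members that were lower and 4 that were higher, where 13.3% and 14.9% of all genes did so.

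The type I chains, which were among the genes furthest below PD-only control, differed from 2i control by 0.06 ± 0.084 (Col1a1, adjusted p = 0.617) and 0.06 ± 0.079 (Col1a2, adjusted p = 0.567). Col5a1 (-0.07 ± 0.04, adjusted p = 0.154), P4ha2 (-0.02 ± 0.051, adjusted p = 0.844) and Bgn (-0.09 ± 0.079, adjusted p = 0.412) also did not pass. Members of the basement membrane and the chaperone were lower with YAP/TAZ siRNA than in 2i control: Serpinh1 by 0.99 ± 0.033 (adjusted p = 2.07e-15), Col4a1 by 0.51 ± 0.039 (adjusted p = 5.6e-10), Col4a2 by 0.46 ± 0.053 (adjusted p = 2.56e-07) and Col4a5 by 0.31 ± 0.06 (adjusted p = 0.000191). In these 4 genes and in Col11a1 (-0.77 ± 0.10, adjusted p = 8.55e-07) every YAP/TAZ siRNA array lay below every 2i control array. Differences of the same sign passed with overlapping arrays for Col18a1 (-0.17), Col3a1 (-0.36), Loxl1 (-0.33), Plod2 (-0.24), Col20a1 (-0.23), Col27a1 (-0.12) and Col26a1 (-0.73). The other probe set of Plod2 did not pass here (-0.054). P4ha1 was 1.75-fold higher with YAP/TAZ siRNA than in 2i control (0.81 ± 0.04, adjusted p = 7.64e-13) and 0.225 higher on its other probe set. It, Col9a2 (0.51 ± 0.069), Col2a1 (0.36 ± 0.064) and Plod3 (0.16 ± 0.032) were higher on every array. Col5a2 (0.18 ± 0.037, adjusted p = 0.000318), Postn (0.15), Col8a2 (0.33), Col13a1 (0.33), Col23a1 (0.36) and Col6a2 (0.11) passed with overlapping arrays. The Actb measure differed by 0.00929 between these arms, and the labelling spikes by -0.533 (exact permutation p = 0.000155).

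**Figure D3:**
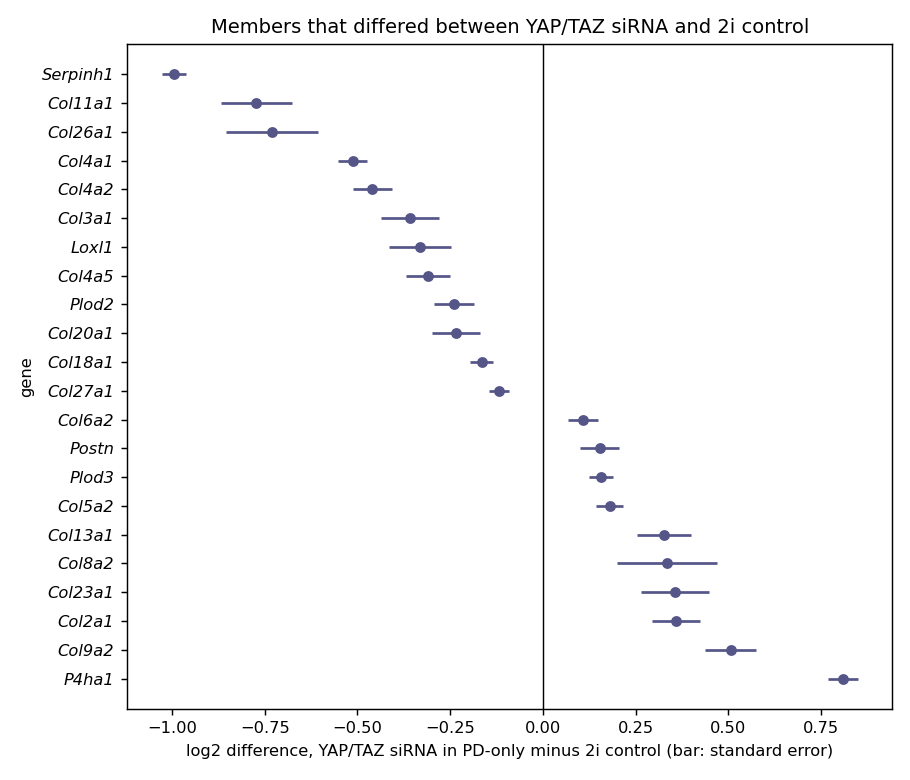
Log2 difference of YAP/TAZ siRNA in PD-only medium minus 2i control (horizontal axis, bars are standard errors) for the 22 members (vertical axis) with an adjusted p under 0.05. The 12 lower members begin with Serpinh1 at -0.99, and the 10 higher ones end with P4ha1 at 0.81, all within 1 log2 unit of 0.

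Where a gene had several probe sets, their differences could be of very different size, and 1 gene had probe sets that passed in opposite directions. The used probe set of Plod1 was lower, while another was higher, by 0.20 and 0.21 in the same 2 comparisons. Col12a1, whose product sits on fibres of tendon, differed by -0.13 and -0.07 on the used probe set and by -2.71 and -2.77 on another. Col4a5 differed by -2.40 and -3.37 on its other probe set, and Col8a1 by -3.57 and -3.68 on one of its others. For these 3 genes the brightest probe set was thus not the one with the largest difference. In the other direction, the second probe set of Col1a1 gave -1.31 and -1.15, that of Col3a1 -0.29 and -0.23, and that of Loxl1 -0.13 and -0.15. No other probe set of Bmp1 (-0.13 and -0.18, 0.11 and 0.11), Dcn (-0.07 and 0.03), Loxl4 (-0.06 and -0.02) or Col5a3 (-0.16 and -0.12) passed. Serpinh1's probe sets gave like values, -0.80 and -1.73 on the second. Which transcripts each probe set reads was not tested.

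**Figure D4:**
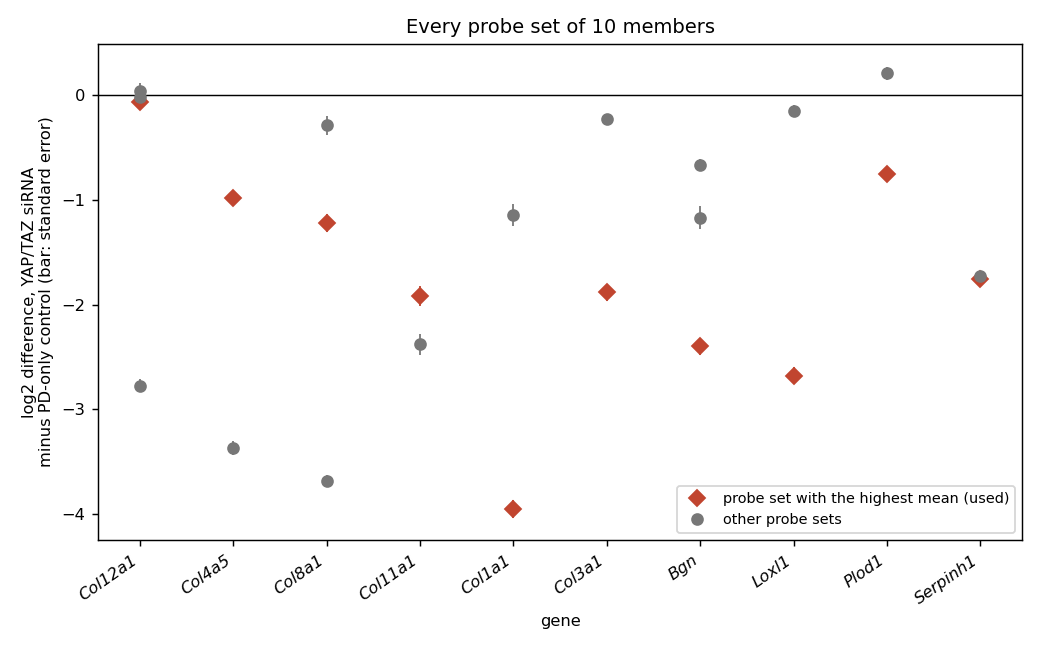
Log2 difference of YAP/TAZ siRNA minus PD-only control (vertical axis, bars are standard errors) of every probe set of 10 members (horizontal axis), with red diamonds for the probe set used and grey circles for the others. Those of Serpinh1 lie together, whereas those of Col12a1, Col8a1 and Loxl1 lie more than 2 log2 units apart, and those of Plod1 lie on either side of 0.

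Genes of the same pathway outside the members were mixed. Among all genes, 26.7% were lower and 31.3% higher in 2i control than in PD-only control, with 4.12% lower by 2-fold or more. With YAP/TAZ siRNA the shares were 26.3%, 35.5% and 4.47%. Of 20 measured genes of collagen synthesis and secretion, 9 were lower and 4 higher in 2i control than in PD-only control, 3 of them lower by 2-fold or more, and 9 were lower and 4 higher with YAP/TAZ siRNA, 3 by 2-fold or more. P3h4, an endoplasmic reticulum protein that works with lysyl hydroxylase, led with -2.54 ± 0.042 and -2.82 ± 0.04 (adjusted p = 4.15e-21 and 3.86e-22). Creb3l1, a transcription factor activated by cleavage that drives type I collagen genes in bone, followed with -1.50 ± 0.089 and -1.77 ± 0.086 (adjusted p = 7.05e-12 and 2.18e-13). Its level lay below that of the median gene in every arm. Crtap and Ppib, partners in the prolyl 3-hydroxylase complex, passed in neither comparison (0.08 and -0.01, 0.04 and -0.01). Of 13 measured genes of collagen binding and assembly, 4 were lower and 2 higher in 2i control, and 5 were lower and 3 higher with YAP/TAZ siRNA. The 4 lower in 2i control were near the share of all genes, but all 4 were lower by 2-fold or more, against 4.12% of all genes. With YAP/TAZ siRNA 3 were lower by that much, against 4.47%. Ddr1, a receptor kinase that collagen activates, differed by -2.43 ± 0.048 and -2.52 ± 0.047 (adjusted p = 9.14e-20 and 2.45e-20), and Sparc, a collagen-binding glycoprotein, by -2.09 ± 0.029 and -2.12 ± 0.028 (adjusted p = 3.1e-22 and 1.3e-22). Between YAP/TAZ siRNA and 2i control, Pcolce2, a relative of Pcolce, was higher by 0.75 ± 0.026 and Fbln2, a fibulin, by 0.78 ± 0.058. Sec24d, part of the coat that carries procollagen out of the endoplasmic reticulum, was lower by 0.47 ± 0.024 (adjusted p = 1.6e-12), and Cthrc1, a secreted protein with a short collagen repeat, by 0.43 ± 0.036 (adjusted p = 2.24e-09).

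Markers of other cells that make collagen were counted in the same way. For comparison, 26.7% of all genes were lower and 31.3% higher in 2i control, and 26.3% and 35.5% with YAP/TAZ siRNA. Of 12 fibroblast markers, which a feeder layer would bring, 8 were lower in 2i control than in PD-only control and 5 with YAP/TAZ siRNA, and 0 were higher. Their summed level ranged from 51.9 to 53.2 on 2i control arrays, from 58.8 to 60.5 on PD-only control arrays and from 54.4 to 55.9 with YAP/TAZ siRNA. The largest differences were of Prrx2 (-2.69 and -1.55) and Pdgfrb (-1.70 and -1.63), and the other 10 markers, among them Thy1, Fap, Twist2 and Pdgfra, lay below the median gene's level in every arm. Of 7 parietal endoderm genes, the extra-embryonic cells that secrete type IV collagen, 4 were lower and 1 higher in 2i control and 5 were lower and 1 higher with YAP/TAZ siRNA. Their summed level was 52.4 to 53.1, 56.5 to 57.0 and 51.8 to 53.4 in the same order. Of 9 primitive endoderm markers, 3 were lower and 2 higher in each comparison, with sums of 45.4 to 46.1, 47.0 to 48.1 and 45.4 to 47.1. Of 8 trophoblast markers, 5 were lower and 1 higher in 2i control and 4 lower and 2 higher with YAP/TAZ siRNA, with sums of 47.4 to 47.8, 55.9 to 56.7 and 49.2 to 50.3. Of 5 mesoderm markers, 1 was lower in each comparison, and 0 and 2 were higher. The counts of lower primitive endoderm and mesoderm markers were near the share of all genes. The part of such cells in the collagen values was not tested.

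The siRNAs of an arm were compared with each other. The effect of 2i control against PD-only control did not pass for a difference between control siRNA 1 and 2 in any of the 60 members by limma, adjusted over all genes (4 members at an unadjusted p under 0.05). YAP/TAZ siRNA 1 and 2 did not pass for a difference in any member either (4 members at an unadjusted p under 0.05). Of all 18193 genes, 0 passed in either comparison of siRNAs. A p that misses the threshold does not show that the siRNAs act alike.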

How the data were processed

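RNA was labelled with a 3′ kit and hybridised to 22 Affymetrix arrays (7 2i control, 7 PD-only control, 8 YAP/TAZ siRNA; 3 or 4 per siRNA). The deposited table holds log2 expression per probe set, normalized by RMA per the submitters' processing notes; no source used here gives its version or annotation. The log2 scale was read from the values, which run from 2.09 to 14.91. Of 45101 probe sets, 64 array controls were set aside. The 34945 with 1 symbol were reduced to the brightest per gene, which left 18193 genes. All 60 members were found in the RefSeq gene table by Entrez ID.

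limma 3.58.1 in R 4.3.3 was fitted to all 18193 genes and 22 arrays, with 1 mean for each of 6 groups of medium and siRNA. Arms were equal-weight averages of their siRNA groups, with 16 residual and 3.1 prior degrees of freedom. P-values were adjusted by Benjamini-Hochberg over all genes, and "lower", "higher" and "passed" mean an adjusted p under 0.05. Array control measures were compared by two-sided exact permutation tests. The fit was tested on simulated data. Arrays hold no depth, so their number limits the precision.

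The members, roles and lists were chosen with earlier results of these data known. Lowest, median and highest values are given for the first 20 members by the larger difference from PD-only control, among those that passed with an arm mean at the level of the median gene (6.63) or above, and for the member with the highest mean in each role class without one. Other members are given by their range or difference; Col3a1, Col11a1, Col6a3, Col8a2, Col9a2, Col13a1 and Lox were picked for ranges after their values were seen. Of the other pathway genes, up to 4 that passed in a comparison with the largest difference are named; Crtap and Ppib were picked afterwards, as were the markers named. Alternatives covered the threshold, probe set choice, dim genes, normalization, the variance model, the siRNAs, a block for replicate letter, the Actb covariate and leaving out each array. Promoter motifs were counted on both strands. Protein sequences were not analysed here.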

Additional observations from a re-analysis of the deposited data

Results flagged for a closer look

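In each arm, the highest or lowest array of a member was set against the others by Dixon's gap test. Of 180 combinations of member and arm, 18 had such an array, where chance gives about 1 in 20. On 2i control arrays, Bmp1 lay at 5.39 with control siRNA 1 replicate B (others 5.43 to 5.46), and Postn at 4.24 with control siRNA 1 replicate A (others 4.47 to 4.62). With control siRNA 2 replicate A, Col14a1 lay at 4.35 (others 3.84 to 4.02) and Col4a6 at 4.07 (others 4.32 to 4.48). With control siRNA 2 replicate C, Col18a1 lay at 10.29 (others 10.42 to 10.48) and Col3a1 at 4.02 (others 4.29 to 4.46).

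On PD-only control arrays, Col2a1 lay at 7.76 with control siRNA 1 replicate A (others 8.02 to 8.12), Col4a1 at 10.79 with control siRNA 1 replicate B (others 10.62 to 10.67), Loxl1 at 7.26 with control siRNA 1 replicate C (others 7.45 to 7.56) and Plod1 at 6.31 with control siRNA 1 replicate D (others 6.56 to 6.69). Col6a1 lay at 3.45 with control siRNA 2 replicate B (others 3.77 to 3.98).

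On YAP/TAZ siRNA arrays, Col25a1 lay at 6.26 with YAP/TAZ siRNA 1 replicate B (others 6.44 to 6.56). With YAP/TAZ siRNA 2, Col1a1 lay at 4.69 (others 5.03 to 5.32) and Col6a2 at 6.0 (others 6.10 to 6.19) in replicate B, Col4a5 at 4.33 in replicate C (others 4.59 to 4.80), and Col4a6 at 4.80 in replicate A (others 4.21 to 4.45). Col6a5 at 2.72 (others 2.90 to 3.03) and Col7a1 at 5.14 (others 5.38 to 5.57) stood apart in YAP/TAZ siRNA 2 replicate D. No member's effect differed between siRNAs of 1 arm by the interaction test.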

How the results depend on the processing

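Of the 60 members, 33 were lower and 7 higher in 2i control than in PD-only control, 34 and 5 with YAP/TAZ siRNA, and 12 and 10 between YAP/TAZ siRNA and 2i control. These counts stayed within 1.5 times under the other 38 settings except the following. A 2-fold change on top of the threshold left 18 lower and 0 higher, 19 and 0, and 0 and 0. Leaving out genes below the median gene's level in every arm left 21 members to test, with 18 and 0, 19 and 1, and 7 and 5. Some of the 21, such as Col1a2 and Postn, passed that filter only through the PD-only control, where they were high, so these counts show nothing about the share of lower members. The 7 higher in 2i control became 3 at an adjusted p of 0.01 and 3 with control siRNA 1 alone. With the Actb covariate 1 member was higher, Plod2 (0.28, adjusted p = 0.00384), whose other probe set was lower without it (-0.142). None of the 7 was higher with the covariate. Their count was 4 to 7 when 1 array was left out, with 4 without control siRNA 1 replicate A or control siRNA 2 replicate C of 2i control. The 5 higher with YAP/TAZ siRNA became 3 with YAP/TAZ siRNA 2 alone. The cause was not tested.

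Differences that passed the test in the reported or the other setting changed sign in 3 cases. With the Actb covariate, Col15a1 was -0.0913 (adjusted p = 0.532) in 2i control and Plod2 was 0.0429 (adjusted p = 0.679) with YAP/TAZ siRNA. Over the mean of all its probe sets, Col22a1 was -0.13 (adjusted p = 0.00153) with YAP/TAZ siRNA. With the Actb covariate the counts were 31 and 1, 30 and 4, and 12 and 10, and the largest differences, of Col5a2 and Col1a2, were -4.69 and -4.68 in 2i control. Leaving out 1 array ended 9 calls of single members. In 2i control against PD-only control these were Col12a1 (for each of 9 arrays, adjusted p up to 0.113), Col9a2 (10 arrays, up to 0.106), Col22a1 (8 arrays, up to 0.137), Col15a1 (4 arrays, up to 0.0976) and Loxl3 (4 arrays, up to 0.0982). With YAP/TAZ siRNA against PD-only control it was Plod3 (5 arrays, up to 0.0669), and against 2i control Col8a2 (12 arrays, up to 0.16), Col6a2 (7 arrays, up to 0.101) and Postn (2 arrays, up to 0.0524). Array letters did not pair the samples: over 51 pairs with the same letter the correlation of deviations ran from -0.0771 to 0.124, with 2 above 0.1. A replicate block by letter gave 35 and 7, 34 and 5, and 12 and 10. RMA values near background limit the 39 members below the median gene's level in every arm.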
